A study of Mus musculus with 16 samples.

Results

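The 10 genes described here encode chaperones and other proteins of the endoplasmic reticulum (ER) together with the transcription factor XBP1. They are Hspa5, Hsp90b1, Pdia4, Calr, Dnajb9, Sdf2l1, Creld2, Manf, Herpud1 and Xbp1, taken by name from a list, and they are 10 of the 54193 genes with a transcript in the files. All 10 passed the filter on low counts and were among the 14838 genes tested. Their levels were compared across the 6 groups of 16 RNA-seq libraries of cultured mouse brain microvascular endothelial cells (mBMEC).

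The cells came from Cdh5(PAC)-CreERT2/PDCD10 fl/fl mice of 8 to 10 weeks, in which Cre is driven by an endothelial promoter and activated by 4-hydroxytamoxifen (4-OHT), and each culture combined the brains of several animals and was selected with puromycin. Pdcd10, also called Ccm3, is a gene whose loss causes cerebral cavernous malformations. KO cells had received 4-OHT and WT cells, with the same floxed alleles and the same Cre, had not, so the loss of Ccm3 and exposure to 4-OHT cannot be told apart. There were 3 WT libraries with 2 each of WT+P and WT+R, and 3 each of KO, KO+P and KO+R. P is 10 µM propranolol, a beta-adrenergic receptor blocker, and R is 100 nM rapamycin, an inhibitor of mTORC1, each given for 24 h. WT+P and WT+R had only replicates 1 and 2. The libraries are labelled as biological replicates, which the study's methods describe as independent cell cultures, and the sources do not say whether libraries of different groups with the same number share a culture.

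Proteins that enter the ER are folded there by chaperones, and when unfolded proteins build up, the sensors IRE1, PERK and ATF6 set off the unfolded protein response. IRE1 cuts a short intron out of the Xbp1 mRNA in the cytoplasm, which shifts the reading frame so that the spliced mRNA encodes the active factor. XBP1 and ATF6 bind ER stress response elements in promoters of chaperone genes, while PERK slows translation and favours the factor ATF4. Endothelial cells secrete much of their basement membrane and coagulation proteins through this compartment.

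The Xbp1 intron is shown because splicing is read from it below. The annotation holds an unspliced Xbp1 transcript and a spliced one that lacks 26 bases inside exon 4 of the former, within its coding sequence, at chr11:5474278-5474303 (GRCm39, + strand). The stretch chr11:5474248-5474333 is printed 5′ to 3′ with the intron in capitals, first unspliced and then as joined by splicing, with 30 bases on either side.
Xbp1 unspliced: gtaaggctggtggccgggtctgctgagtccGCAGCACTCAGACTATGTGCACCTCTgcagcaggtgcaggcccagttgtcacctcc
Xbp1 spliced: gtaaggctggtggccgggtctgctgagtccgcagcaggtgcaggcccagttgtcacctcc
A short repeat on both sides of the cut lets 7 placements of a 26-base intron give the same spliced product, and the annotated one is printed.

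The promoters of 5 of the genes are shown because these windows hold an ER stress response element. RefSeq windows (GRCm38.p6) from 250 bases before to 50 bases after the annotated start were matched for 9 of the 10 genes, all but Manf. Both strands were searched for the ER stress response element, CCAAT and CCACG with 9 bases between them, and for element II, ATTGG and CCACG with 1 base between them. The first was in 4 of the 9 windows, Hspa5, Hsp90b1, Calr and Creld2, and in the windows of 0.137% of 27025 genes. Element II was in the Herpud1 window and in those of 0.0444% of genes. The 220 bases before the start are printed on the gene's strand with the elements in capitals.
Hspa5, chr2:34771870-34772089 (+): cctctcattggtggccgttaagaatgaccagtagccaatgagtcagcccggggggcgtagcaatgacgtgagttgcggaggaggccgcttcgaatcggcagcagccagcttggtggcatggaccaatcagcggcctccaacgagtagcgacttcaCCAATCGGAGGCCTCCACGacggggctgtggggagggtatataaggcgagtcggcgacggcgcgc
Hsp90b1, chr10:86705445-86705664 (-): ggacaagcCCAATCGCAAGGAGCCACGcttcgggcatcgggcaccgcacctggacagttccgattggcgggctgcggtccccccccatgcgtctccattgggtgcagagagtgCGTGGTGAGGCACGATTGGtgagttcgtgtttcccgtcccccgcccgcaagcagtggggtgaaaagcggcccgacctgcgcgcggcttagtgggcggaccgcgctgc
Calr, chr8:84846932-84847151 (-): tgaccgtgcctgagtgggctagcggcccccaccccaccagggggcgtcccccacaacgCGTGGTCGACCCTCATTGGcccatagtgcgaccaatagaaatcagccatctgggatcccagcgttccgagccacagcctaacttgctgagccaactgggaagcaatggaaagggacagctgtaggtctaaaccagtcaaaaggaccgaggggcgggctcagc
Creld2, chr15:88819426-88819645 (+): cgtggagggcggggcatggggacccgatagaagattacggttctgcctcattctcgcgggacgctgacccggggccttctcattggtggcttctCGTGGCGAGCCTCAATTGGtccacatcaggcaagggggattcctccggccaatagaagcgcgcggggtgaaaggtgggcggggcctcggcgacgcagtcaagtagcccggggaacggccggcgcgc
Herpud1, chr8:94386209-94386428 (+): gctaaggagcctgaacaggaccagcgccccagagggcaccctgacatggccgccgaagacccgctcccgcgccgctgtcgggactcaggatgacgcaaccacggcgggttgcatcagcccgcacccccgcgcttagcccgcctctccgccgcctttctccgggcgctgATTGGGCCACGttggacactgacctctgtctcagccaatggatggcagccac
In these printed strands the elements of Hspa5 and Herpud1 and the upstream element of Hsp90b1 read forward, and the others are reverse complements. The element lay 65 to 47 bases before the start in Hspa5, 212 to 194 and 107 to 89 bases before it in Hsp90b1, 162 to 144 in Calr and 126 to 108 in Creld2. In Herpud1, element II lay 52 to 42 bases before the start. Each first element holds a CCAAT box, CCAAT, which alone was in 8 of the 9 windows and in those of 41.1% of genes, with Xbp1 the gene without it. The XBP1-binding core TGACGTGG was in 0 of the 9 windows and in those of 0.714% of genes. A match describes the letters only, and the members without one have no such letters in this window.

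**Figure D1:**
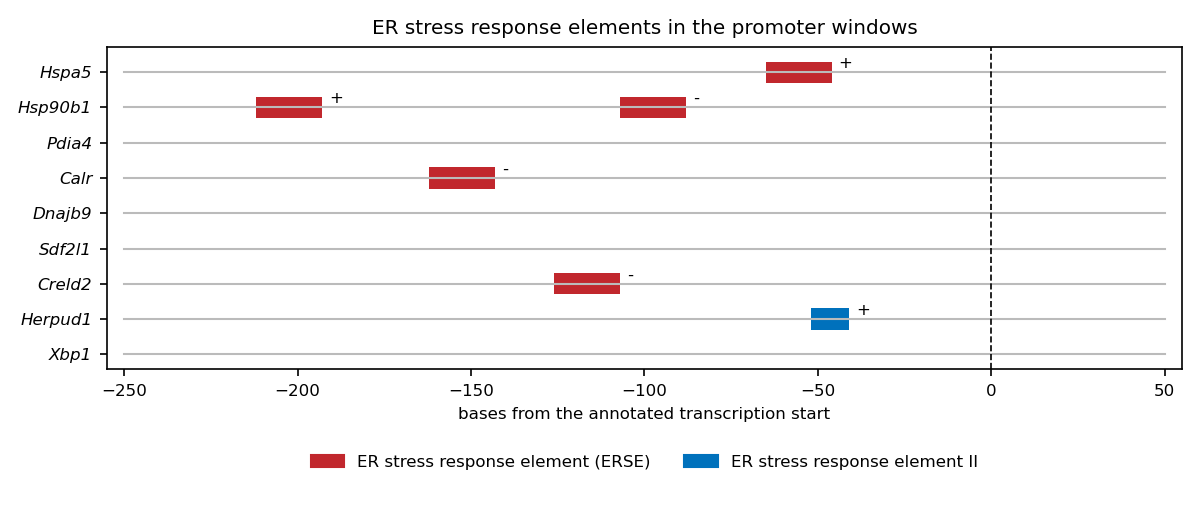
Promoter windows of 9 genes, drawn to scale from 250 bases before to 50 bases after the annotated transcription start (dashed line), with each match to an ER stress response element as a bar and its strand beside it. Hsp90b1 holds 2 elements, Hspa5, Calr and Creld2 hold 1 each, and Herpud1 holds element II.

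The libraries held 18.83 to 26.2 M expected counts. Levels are given as CPM, the count relative to library size with TMM factors applied, or as TPM, the like value corrected for transcript length, where genes are compared with each other. The markers of endothelial cells Pecam1 and Cdh5 lay between 1363 and 5186 CPM in every library. The endothelial markers Tek (36.6 to 165 CPM), Flt1 (120 to 371) and Kdr (53.2 to 542) were lower. Markers of other cell types lay below Pecam1 and Cdh5 and were not all absent, and Cd79a of B cells reached 14.0 CPM. Of 5 fibroblast markers Lum was listed at 0 in all 16 libraries, but Col1a1 reached 113 CPM and the sum reached 186 CPM, in KO+R. The sums of 4 markers each did not exceed 28.5 CPM for neurons (nearly all Tubb3, with Snap25 at most 0.333), 7.54 for astrocytes (nearly all Aldh1l1), 2.04 for oligodendrocytes and 0.607 for microglia, whose P2ry12 was listed at 0 in all 16. The mural marker Acta2 reached 618 CPM, above the highest values of Tek, Flt1 and Kdr, and the sum of 6 mural markers was highest in WT+R, at 564 and 623 CPM.

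Pdcd10, the targeted gene, was measured first. It was at 11.5, 31.2 and 47.0 CPM in WT and at 9.72, 11.0 and 9.73 CPM in KO. The library labelled WT replicate 1 was thus at the level of the KO libraries, while the WT+P and WT+R libraries lay between 27.7 and 60.8 CPM and every KO+P and KO+R library under 17. The log2 fold change of KO against WT was -1.56 (SE 0.40, edgeR quasi-likelihood adjusted p = 0.42), and -1.96 (SE 0.30, adjusted p = 0.13) without that library. Comparisons with WT are given below with it, and without it where it matters.

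The genes differed more than 10-fold in level. Over all 16 libraries, the median level was 461 TPM for Calr, a lectin chaperone that binds glycoproteins and calcium, and 32.6 TPM for Sdf2l1, which takes part in the chaperone cycle of BiP. Between them lay Manf (279 TPM), Hspa5 (272), Hsp90b1 (201), Xbp1 (93.4), Pdia4 (90.5), Herpud1 (59.3), Dnajb9 (49.3) and Creld2 (47.1). Within untreated cells some neighbours in this order were apart. In KO, Hsp90b1 (172 to 235 TPM) lay above Xbp1 (83.7 to 108), Pdia4 (87.8 to 91.5) above Herpud1 (57.7 to 65.9), and Herpud1 above Dnajb9 (35.5 to 49.9). The same 3 pairs did not overlap in WT either, and Creld2 lay above Sdf2l1 in both. The ranges of Manf, Hspa5 and Hsp90b1 overlapped as neighbours in both, as did those of Xbp1 and Pdia4. Compared within each library, Hspa5 lay above Hsp90b1 in all 16. The order of Manf and Hspa5, and that of Xbp1 and Pdia4, changed from library to library.

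The 10 genes had their highest levels in the propranolol libraries of replicate 1, in both genotypes. Hspa5, which encodes BiP, the most general chaperone of the ER, was at 329, 506 and 371 CPM in WT and at 4604 and 593 CPM in WT+P. In KO it was at 383, 512 and 452 CPM, and in KO+P at 4104, 1217 and 490.2 CPM. Replicate 1 stood far above the untreated libraries in both genotypes, replicate 2 stood above them in KO and only slightly in WT, and replicate 3 of KO+P lay within the KO range. The log2 fold change from the model was 2.11 (SE 0.71) in KO and 2.69 (SE 0.77) in WT, with adjusted p-values of 0.325 and 0.335 (edgeR quasi-likelihood, over all genes tested). Of its exon bases, 23.7% overlap Rabepk on the opposite strand, and without strand the reads of the pair cannot be told apart there.

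**Figure D2:**
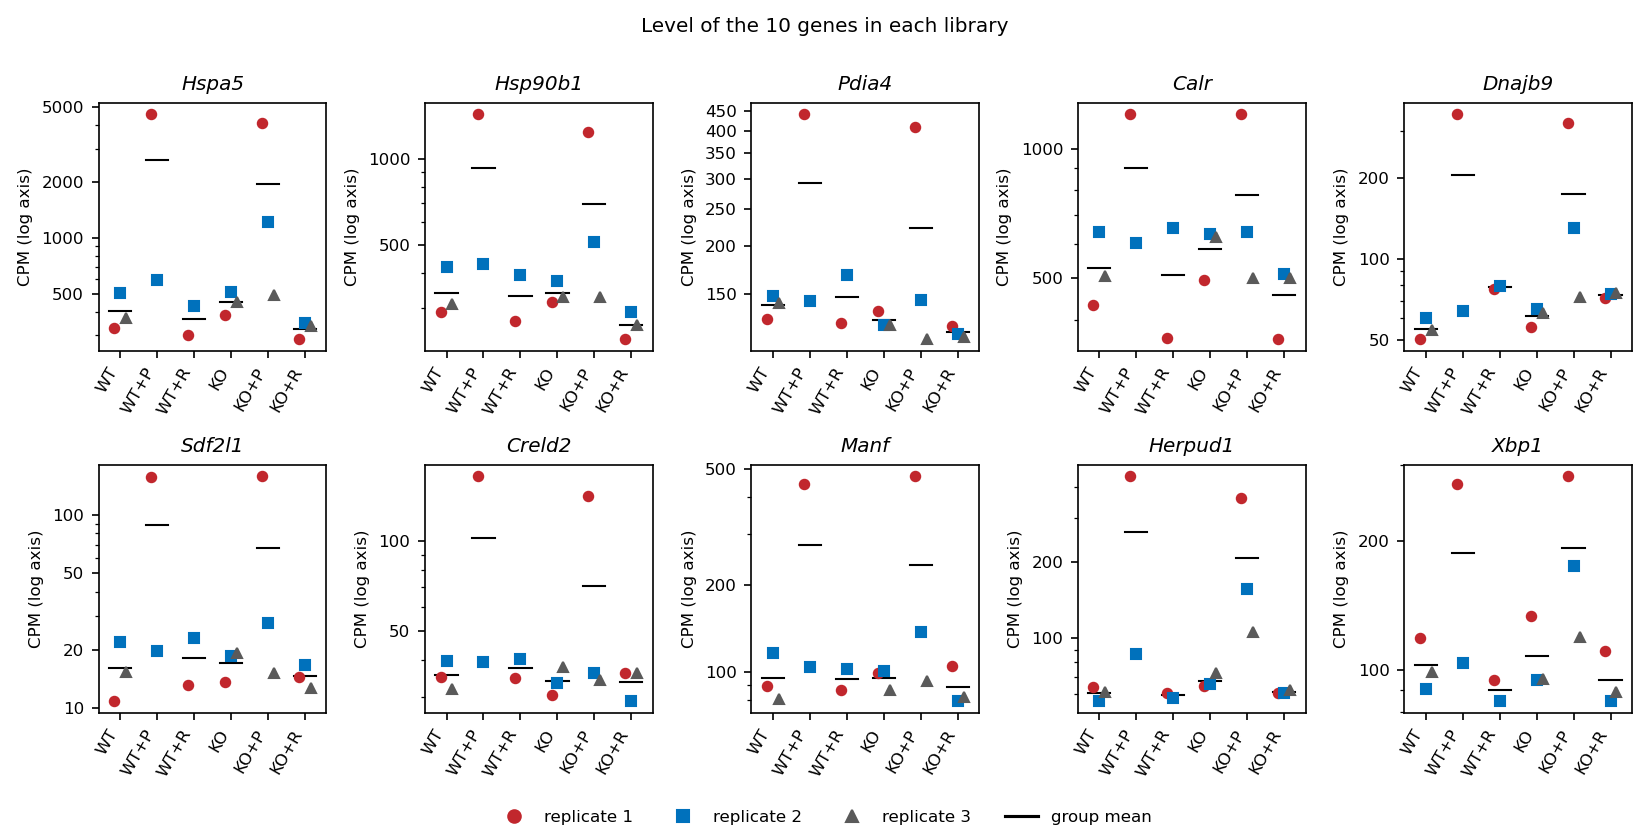
Level of each gene in CPM (log axis) in the 16 libraries, by group, with the replicate number as colour and shape and the group mean as a line. In WT+P and KO+P the replicate 1 library is the highest of its group for each of the 10 genes, for Hspa5 at 4604 and 4104 CPM.

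The other large chaperones followed the same order of libraries with smaller ratios. Hsp90b1, the ER member of the HSP90 family, was at 1438 and 429 CPM in WT+P against 292 to 418 in WT, and at 1245, 514 and 328 CPM in KO+P against 316 to 375 in KO. Pdia4, a protein disulfide isomerase, was at 443 and 143.5 CPM in WT+P against 129 to 148 in WT, and at 409.7, 145 and 114 CPM in KO+P against 124 to 135 in KO. For both, only replicate 1 in WT+P, and only replicates 1 and 2 in KO+P, were above every untreated library of their genotype, apart from a second WT+P library of Hsp90b1 that was just above WT. Calr was at 1203 and 602 CPM in WT+P against 433 to 641 in WT, and at 1201, 640.1 and 499 CPM in KO+P against 494 to 633 in KO. Its log2 fold change was the smallest of the 10, at 0.42 (SE 0.34) in KO and 0.78 (SE 0.38) in WT.

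Of the co-chaperones and small ER proteins, Sdf2l1 had the largest fold changes. Sdf2l1 was at 10.9, 21.9 and 15.4 CPM in WT and at 157 and 19.7 CPM in WT+P. In KO it was at 13.6, 18.7 and 19.4 CPM and in KO+P at 158, 27.4 and 15.2 CPM. Sdf2l1 was thus about as high as Hspa5 in relative terms in replicate 1, and in the other propranolol libraries it lay within or near the untreated range. Dnajb9, a J-domain protein that recruits BiP, was at 50.2, 60.3 and 54.2 CPM in WT and at 347 and 63.8 CPM in WT+P. In KO it was at 55.9, 65.3 and 63.1 CPM and in KO+P at 321, 131 and 72.0 CPM. Its groups did not overlap in either genotype. Creld2, an ER protein with EGF-like domains, reached 166 CPM in replicate 1 of WT+P and 142 CPM in that of KO+P and lay between 34.3 and 39.4 CPM in the other propranolol libraries. Manf, a small protein of the ER that binds BiP and can be secreted, reached 445 and 474 CPM in the same 2 libraries and lay between 92.8 and 137 CPM in the others.

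Each propranolol library was set against the untreated library of its replicate number. Of the 10 genes, Herpud1 and Xbp1 had the highest minimum of these ratios, 1.45 for Herpud1 (KO replicate 3) and 1.14 for Xbp1 (WT replicate 2). Herpud1, a membrane protein that helps to remove misfolded proteins from the ER, was at 64.1, 56.0 and 61.2 CPM in WT and at 440.1 and 86.6 CPM in WT+P. In KO it was at 64.5, 65.6 and 72.9 CPM and in KO+P at 360.3, 156 and 106 CPM. All 5 propranolol libraries were above all 6 untreated ones for Herpud1. Its log2 fold change was 1.62 (SE 0.49, adjusted p = 0.297) in KO and 2.12 (SE 0.53, adjusted p = 0.275) in WT, the smallest adjusted p-values of the 10 genes in both comparisons. Xbp1 was at 119, 90.5 and 99.3 CPM in WT, 271 and 103.7 CPM in WT+P, 134, 94.8 and 95.3 CPM in KO and 283, 175 and 119 CPM in KO+P. In KO+P the lowest Xbp1 library was under the highest KO library, so the groups overlapped.

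Across the 10 genes, none was called in KO+P vs KO or in WT+P vs WT, where a call needs an adjusted p under 0.05 and a fold above 1.5. edgeR called 0.00674% of all genes in each of these comparisons. All 10 fold changes were positive in both. At an unadjusted p under 0.05, 7 of 10 were higher in KO+P and 9 of 10 in WT+P, against 6.93% and 6.7% of all genes. With the replicate number as a block in edgeR, 5 of 10 in KO+P and 6 of 10 in WT+P had such a p. In either direction, 25% and 13.4% of all genes had it with the block, and 12.6% and 9.87% without it. The median log2 fold change was 1.18 in KO and 1.53 in WT, and over all genes tested -0.01 and 0.00. Without the library labelled WT replicate 1 the median in WT was 1.49 and all 10 were positive. Of the 10, 7 then had an unadjusted p under 0.05, as did 5.62% of all genes in either direction. DESeq2 called 1 gene in KO+P vs KO, Herpud1 (log2 fold change 1.61, adjusted p = 0.0372), where it called 1.11% of all genes. It called 2 in WT+P vs WT, Hspa5 (2.68, adjusted p = 0.0246) and Herpud1 (2.11, adjusted p = 0.0127), and 0.795% of all genes. Only Dnajb9 and Herpud1 had every KO+P library above every KO library, as did 9.58% of all genes, and Dnajb9, Herpud1, Hsp90b1 and Hspa5 had every WT+P library above every WT library, as did 10.8% of all genes.

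The size of these values rested on replicate 1. Without KO+P replicate 1 the median log2 fold change in KO was 0.31. Of the 10 genes 9 were still positive, up to 0.95, and Calr was at -0.03. At an unadjusted p under 0.05 in edgeR there were 0 of 10 genes, against 4.64% of all genes. Without WT+P replicate 1 the median in WT was 0.20, with 0 of 10. Without WT+P replicate 2, which leaves a single WT+P library assumed to vary like the other groups, 6 of the 10 were called in WT+P vs WT, and 3.54% of all genes.

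Libraries of the same replicate number deviated together, so each treated library was also set against the untreated library of its own number, as a ratio of CPM with 0.5 added to both. In replicate 1 the 10 genes were between 2.11 and 11.3 times as high in KO+P as in KO (median 4.69), and between 2.28 and 14.0 times as high in WT+P as in WT (median 4.95). The untreated WT library of that number is the one with Pdcd10 at the level of KO. Among the WT libraries it was the lowest for Hspa5 and Sdf2l1 and the highest for Herpud1 and Xbp1. In replicate 2 the median ratio was 1.41 in KO and 1.01 in WT, and in replicate 3 of KO it was 1.04. All 10 genes were past 1.5 in replicate 1 of both genotypes, as were 12.7% of all genes in KO and 14.7% in WT. In replicate 2 there were 4 of 10 in KO, Hspa5, Dnajb9, Herpud1 and Xbp1 (7.37% of all genes), and 1 of 10 in WT, Herpud1 (3.21%). In replicate 3 of KO there were 0 of 10 (3.17%).

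**Figure D3:**
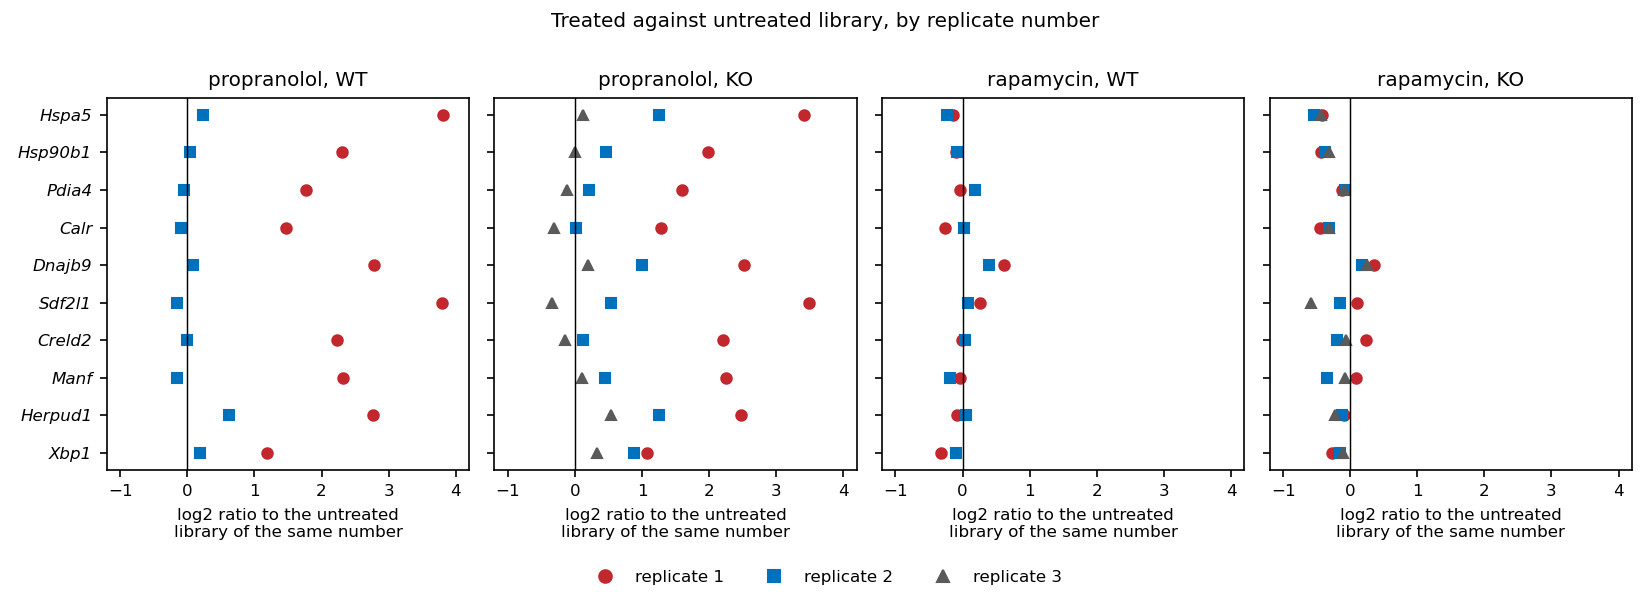
Log2 ratio of each treated library to the untreated library with the same replicate number, for propranolol and rapamycin in WT and KO cells, with 1 point per replicate and gene. Propranolol ratios lie between 1.07 and 3.81 in replicate 1 and between -0.34 and 0.53 in replicate 3, and rapamycin ratios lie between -0.58 and 0.62.

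Other measures moved with these libraries. The mitochondrial share of counts was the lowest of all 16 in WT+P replicate 1, at 0.971% against 1.26 to 1.88% in WT, and in KO+P replicate 1 it was 1.66% against 2.07 to 2.37% in KO. The sum of 8 endothelial markers was lowest of all 16 libraries in WT+P replicate 1 (5778 CPM) and KO+P replicate 1 (6107). It ranged over 9369 to 12389 CPM in WT, 5778 to 9004 in WT+P and 7274 to 7989 in WT+R. In KO it was 9769 to 10670 CPM, in KO+P 6107 to 9143 and in KO+R 8856 to 9775. The WT+R libraries thus also lay below the WT range. All 8 endothelial markers had negative log2 fold changes in KO+P vs KO and in WT+P vs WT, and none of the 8 was at 0 in any library. In bulk RNA fewer cells of a type and less RNA per cell cannot be told apart. The mural sums were 174 and 316 CPM in WT+P against 38.0 to 174 in WT, and 42.1 to 84.1 CPM in KO+P against 30.5 to 55.9 in KO. The fibroblast sums were 2.64 to 42.3 CPM in WT+P against 8.83 to 84.7 in WT, and 3.54 to 67.0 CPM in KO+P against 6.93 to 136 in KO. The neuron sums were 8.75 to 20.3 CPM in WT+P against 2.42 to 10.8 in WT, and 9.96 to 28.5 CPM in KO+P against 6.64 to 10.4 in KO. The part of these shifts in the levels of the ER genes was not tested.

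Splicing of Xbp1 was read as the share of Xbp1 counts that the files assign to the spliced transcript. The share was 1.40, 3.35 and 3.94% in WT, 25.5 and 9.85% in WT+P and 1.84 and 2.56% in WT+R. It was 0.911, 7.05 and 3.19% in KO, 19.0, 17.9 and 9.24% in KO+P and 1.26, 3.24 and 4.15% in KO+R. All 5 propranolol libraries were above all 11 others, including KO+P replicate 3, where Hspa5 was within the untreated range. The mean share was 15.4% ± 5.34 (SD, n = 3) in KO+P and 3.72% ± 3.11 (SD, n = 3) in KO, a difference of 11.7 percentage points, with p = 0.1 in a two-sided exact permutation test, the smallest it can give. The differences within replicate numbers were 18.1, 10.8 and 6.05 points (exact sign-flip p = 0.25, also the smallest possible).

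KO and WT differed by 0.82 points (p = 0.9) and KO+R and KO by -0.83 points (p = 0.9) in the same exact permutation test. Both small differences changed sign without KO replicate 2, the untreated library with the highest share. WT+P and WT+R had 2 libraries each and were not tested. The annotated spliced transcript is 1116 bases long and the unspliced one 2134. The spliced one lacks 341 bases of the other at its start and 651 at its end, so reads from those ends can count only for the unspliced form and the share is not a molar fraction. The libraries are compared on the same annotation, and as a share of TPM, which accounts for length, the difference of KO+P and KO was 20.2 points.

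**Figure D4:**
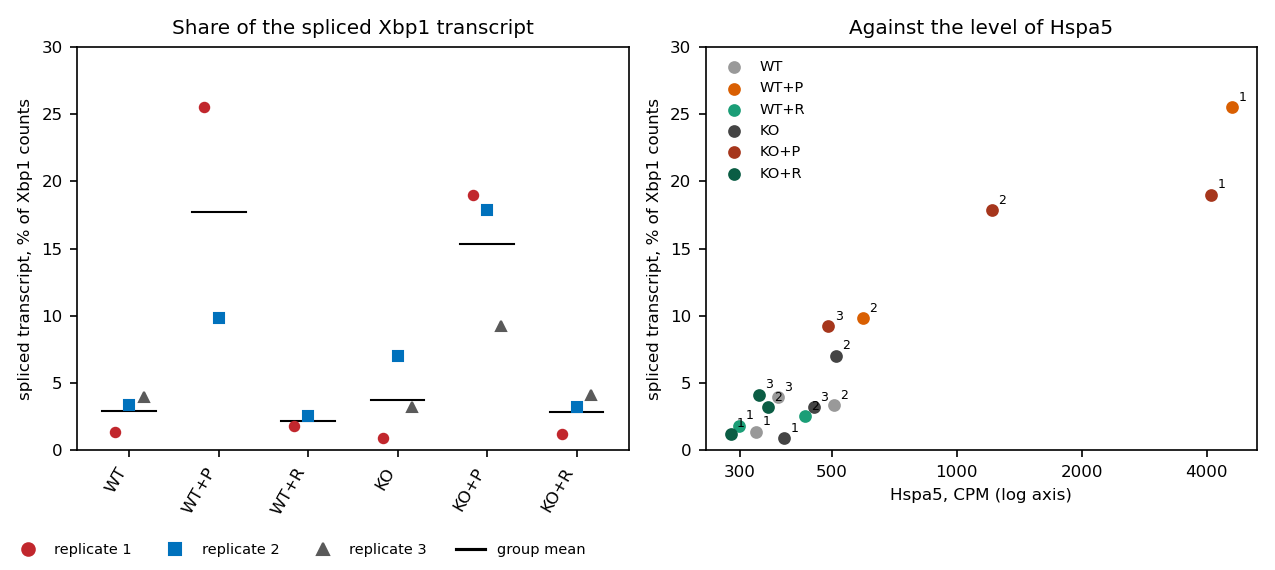
Share of Xbp1 counts assigned to the spliced transcript in each library by group (left, lines are group means) and the same share against the Hspa5 level in CPM on a log axis (right, the numbers are replicates). The 5 propranolol libraries lie between 9.24 and 25.5% and the 11 others between 0.911 and 7.05%.

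With rapamycin no fold change of the 10 genes passed the test, and several genes were slightly lower in every KO library pair. In KO+R vs KO the log2 fold changes lay between -0.47 (Hspa5, SE 0.68) and 0.26 (Dnajb9, SE 0.52), with 0 of 10 called in edgeR and in DESeq2, against 1.51% of all genes in edgeR, and 0 of 10 at an unadjusted p under 0.05 (12.5% of all genes). In WT+R vs WT they lay between -0.19 (Xbp1) and 0.52 (Dnajb9), with 0 called by either tool, against 1.4% of all genes in edgeR, and 0 at an unadjusted p under 0.05 (12.6%). Against the untreated library of the same number, 1 ratio was past 1.5, that of Dnajb9 in WT+R replicate 1 (1.54), where 8.26% of all genes were, and 0 of 10 were in WT+R replicate 2 (6.21%) and in KO+R replicates 1, 2 and 3 (7.12%, 5.55% and 5.56%). In KO the ratios of replicates 1, 2 and 3 were 0.744, 0.686 and 0.739 for Hspa5, 0.741, 0.774 and 0.801 for Hsp90b1, 0.729, 0.805 and 0.801 for Calr and 0.829, 0.896 and 0.932 for Xbp1. Herpud1 and Pdia4 were also under 1 in all 3, and Dnajb9 was above 1 in all 3. Fitted on the KO and KO+R libraries only, 3 of 10 had an unadjusted p under 0.05, Hspa5, Hsp90b1 and Dnajb9, as did 18.6% of all genes in that fit, and 0 of 10 were called. Hspa5 was at 285, 351 and 334 CPM in KO+R, below all 3 KO libraries, and at 299 and 431 CPM in WT+R, of which the first lay below the WT range. Herpud1, Hsp90b1 and Pdia4 also had every KO+R library below every KO library, which held for 13.2% of all genes. Dnajb9 was the 1 gene with every rapamycin library above every untreated library of its genotype, at 71.6, 73.9 and 74.8 CPM in KO+R and 77.5 and 79.6 CPM in WT+R, which held for 10.9% of all genes in KO and 14.0% in WT.

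Rapamycin was also compared with propranolol, in comparisons that share the propranolol libraries with those above. In KO+R vs KO+P all 10 genes were lower, by a median of -1.33 on the log2 scale, and 8 had an unadjusted p under 0.05, against 11.8% of all genes lower at that p. None was called by edgeR, against 4.08% of all genes. The smallest adjusted p-values were 0.0563 for Herpud1 (-1.77, SE 0.49) and 0.0594 for Hspa5 (-2.58, SE 0.72). With the replicate number as a block, 2 of the 10 fell past both thresholds, Xbp1 (-0.96, SE 0.22, adjusted p = 0.0158) and Herpud1 (-1.63, SE 0.43, adjusted p = 0.03), as 9.62% of all genes were called then. DESeq2 called 4, Hspa5, Herpud1, Hsp90b1 and Xbp1, and 7.53% of all genes. The same 4 genes had every KO+R library below every KO+P library (13.9% of all genes). In WT+R vs WT+P all 10 were lower by a median of -1.47, 7 had an unadjusted p under 0.05 (8.76% of all genes lower), and none was called by edgeR, against 1.31%, while DESeq2 called Hspa5 and Herpud1 and 4.29% of all genes. Herpud1, Hsp90b1, Hspa5, Manf and Xbp1 had every WT+R library below every WT+P library, as did 19.4% of all genes. Without WT+P replicate 1 that median was -0.17 with 2 of 10 positive, and without KO+P replicate 1 the median of KO+R vs KO+P was -0.50.

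No difference of the 10 genes between untreated KO and WT cells was shown. The SEs of the log2 fold changes reached 0.78 (Sdf2l1, whose value was 0.099), so larger changes were not excluded. In KO vs WT the log2 fold changes lay between -0.13 (Pdia4, SE 0.43) and 0.16 (Herpud1, SE 0.48), with 0 of 10 called by edgeR or DESeq2, against 0.00674% of all genes in edgeR, and 0 at an unadjusted p under 0.05 (6.07% of all genes). Without the library labelled WT replicate 1 they lay between -0.19 and 0.20. Herpud1 was the only one with every KO library above every WT library, at 64.5 to 72.9 against 56.0 to 64.1 CPM, which held for 6.69% of all genes. In KO+R vs WT+R they lay between -0.34 and 0.08, again with 0 called by either tool (0% of all genes in edgeR) and 0 at an unadjusted p under 0.05 (5.72%). Dnajb9 and Pdia4 had every KO+R library below every WT+R library, as did 9.79% of all genes.

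The response to propranolol was not shown to depend on the genotype. In the test of the interaction, the log2 difference between the response of KO and that of WT lay between -0.58 (Hspa5, SE 1.02) and -0.03 (Xbp1, SE 0.50), and 0 of 10 genes, as 0% of all genes, were called by edgeR, 0 by DESeq2 and 0 at an unadjusted p under 0.05 (0.721% of all genes). Its direction rested on the libraries: the median was -0.41, and it was 1.01 without WT+P replicate 1, -1.10 without WT+P replicate 2 and -1.18 without KO+P replicate 1. In replicate 1, Hspa5 was 0.891 times as high in KO+P as in WT+P, and in replicate 2 it was 2.05 times as high. For Herpud1 these ratios were 0.819 and 1.80, and for Xbp1 1.04 and 1.68. In KO+P vs WT+P 0 of 10 were called by either tool (0% of all genes in edgeR), with 0 at an unadjusted p under 0.05 (6.19%). For rapamycin the interaction lay between -0.40 (Sdf2l1) and 0.01 (Xbp1), with 0 called by either tool (0% in edgeR) and 0 at an unadjusted p under 0.05 (0.762%).

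Genes of the neighbouring steps of the pathway were read from 7 lists. Counts of list genes at an unadjusted p under 0.05 are of genes that were higher, and stand against 6.93% of all genes in KO+P vs KO and 6.7% in WT+P vs WT. Of the 7 lists, that of the PERK and ATF4 arm, 10 genes of the stress programme that ATF4 drives, had the highest median log2 fold change in both comparisons. In KO+P vs KO all 10 of its genes were positive with a median log2 fold change of 1.75, 7 had an unadjusted p under 0.05 and 0 were called by edgeR, or 1 with the replicate block, Nupr1 (2.73, adjusted p = 0.0158), where 0.142% of all genes were called. In WT+P vs WT 9 of 10 were positive, the median was 2.20, 8 had an unadjusted p under 0.05 and 0 were called. Chac1, which degrades glutathione, was at 22.4, 51.2 and 22.9 CPM in KO and at 670.2, 485 and 142 CPM in KO+P, and at 16.8, 26.9 and 26.3 CPM in WT and 574 and 112 CPM in WT+P. Every propranolol library was above every untreated one for Chac1, with a log2 fold change of 3.75 (SE 0.65, adjusted p = 0.0825) in KO and 3.88 (SE 0.68, adjusted p = 0.116) in WT. Atf4 itself was at 220.4, 214 and 217 CPM in KO and 1047, 583 and 414 CPM in KO+P. Relative to the untreated library of its number, this list had median ratios of 7.11, 3.06 and 1.69 in replicates 1, 2 and 3 of KO+P, where the 10 ER genes had 4.69, 1.41 and 1.04.

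**Figure D5:**
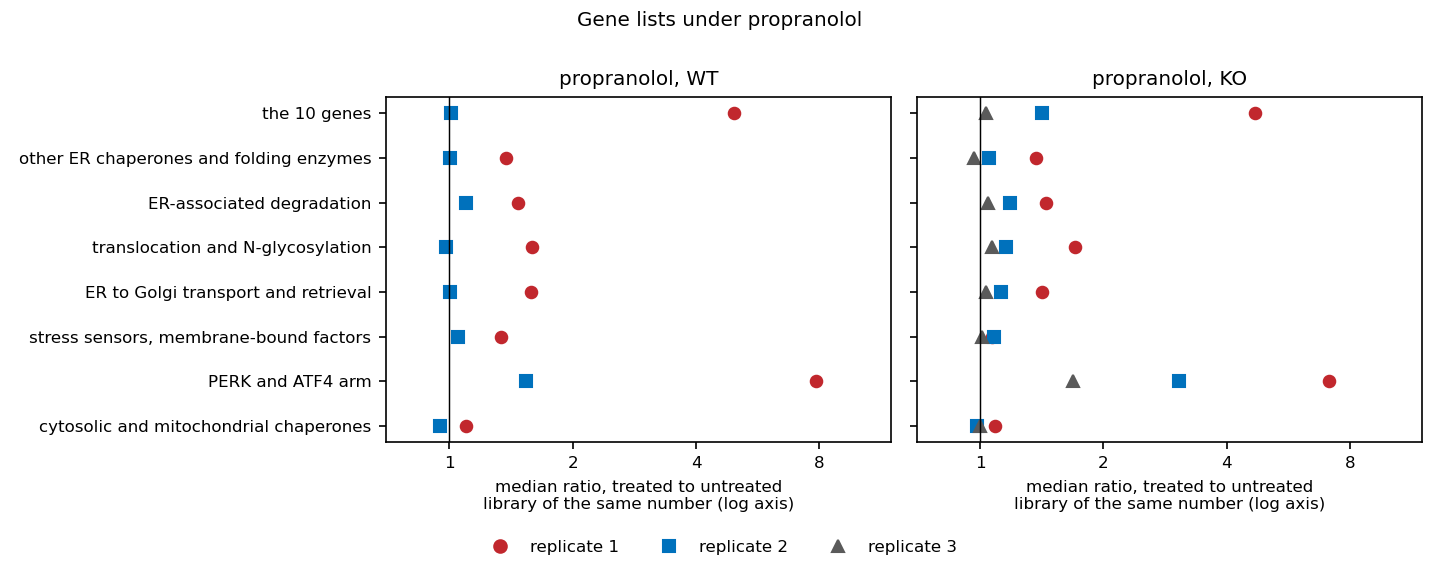
Median ratio of CPM between each propranolol library and the untreated library of the same replicate number (log axis), for the 10 genes and 7 lists, in WT (left) and KO (right). The PERK and ATF4 list lies at 7.11, 3.06 and 1.69 in KO replicates 1, 2 and 3, and the list of cytosolic and mitochondrial chaperones lies near 1.

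In KO+R vs KO+P, 6 of the 10 genes of the PERK and ATF4 list were called lower, against 2.51% of all genes. They were Chac1 (-4.32, adjusted p = 0.00445), Atf4 (-1.96, adjusted p = 0.0123), Atf5 (-2.54, adjusted p = 0.0156) and Nupr1 (-2.04, adjusted p = 0.0185), and also Ddit3, which encodes the stress factor CHOP, and Sesn2, both named after their values were seen. Mean levels in KO, KO+P and KO+R were 32.2, 432 and 21.6 CPM for Chac1 and 217, 681 and 175 CPM for Atf4. They were 73.2, 350 and 60.3 CPM for Atf5 and 10.9, 75.1 and 18.3 CPM for Nupr1. Nupr1 was thus higher in KO+R than in untreated KO. In WT+R vs WT+P 0 of 10 were positive (median -1.85), and 1 was called lower, Chac1 (-4.25, adjusted p = 0.0268), against 0.815% of all genes.

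The translocation list, the machinery that brings proteins into the ER, cleaves signal peptides and adds N-glycans, had 24 genes. All 24 were positive in KO+P vs KO and in WT+P vs WT, with medians of only 0.38 and 0.42, and 8 and 6 had an unadjusted p under 0.05. Sec61a1, the pore of the translocon, had 0.75 in KO and 0.89 in WT on the log2 scale, given after its values were seen. Sec11c, a subunit of the signal peptidase, was lower in KO+R than in KO+P (-0.95, SE 0.19, adjusted p = 0.0146), where 4.08% of all genes were called. Its mean level was 70.4 CPM in KO, 96.7 in KO+P and 49.9 in KO+R. For ER-associated degradation, 15 of 18 genes were positive in KO+P and 16 in WT+P (medians 0.26 and 0.33), with 8 at an unadjusted p under 0.05 in each. Ube2g2, a ubiquitin-conjugating enzyme of that pathway, was lower in KO+R than in KO+P (-0.91, SE 0.19, adjusted p = 0.0186). Its mean level was 216 CPM in KO, 305 in KO+P and 162 in KO+R. Syvn1, Edem1 and Selenos, named after their values were seen, had log2 fold changes of 0.78, 0.83 and 0.92 in KO+P and 1.19, 1.28 and 1.07 in WT+P. For ER to Golgi transport, 18 of 19 were positive in both (medians 0.24 and 0.42), with 4 and 7 at an unadjusted p under 0.05. In WT+P, Sec24a, a coat protein of transport vesicles, had 0.81 (SE 0.21, adjusted p = 0.308) and Golgb1, a Golgi tether, had 0.63 (SE 0.16, adjusted p = 0.286). No gene of these 3 lists was called in either propranolol comparison with untreated cells by edgeR.

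Other ER chaperones and folding enzymes, 25 genes, were less uniform. In KO+P 20 of 25 were positive with a median of 0.17 and 2 at an unadjusted p under 0.05, and in WT+P 20 of 25 with a median of 0.31 and 7, and 0 were called in both. With rapamycin 12 of 25 were positive in KO and 20 of 25 in WT. Of this list edgeR called 1 gene, Txndc5, higher in both genotypes, against 1.51% of all genes called in KO and 1.4% in WT. Txndc5, a thioredoxin-like disulfide isomerase, was at 267, 216 and 208 CPM in KO+R against 122, 103.99 and 107 CPM in KO, and at 307 and 281 CPM in WT+R against 156, 142 and 147 CPM in WT. Its log2 fold change was 1.05 (SE 0.15, adjusted p = 0.00628) in KO and 0.99 (SE 0.17, adjusted p = 0.0157) in WT, and the libraries did not overlap. Txndc5 had -0.01 and 0.03 with propranolol in KO and WT, and in WT the rapamycin call was lost without WT replicate 3 or without either WT+R library.

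Among the 9 stress sensors and membrane-bound factors, 6 were positive in KO+P and 7 in WT+P (medians 0.09 and 0.16) and 0 were called. Creb3l1, a membrane-bound factor related to ATF6, fell with rapamycin, from 10.3, 7.63 and 9.50 CPM in KO to 3.87, 3.08 and 5.08 CPM in KO+R (-1.19, SE 0.23, adjusted p = 0.0256), and from 6.26, 7.51 and 7.79 CPM in WT to 2.60 and 3.14 CPM in WT+R (-1.32, SE 0.27, adjusted p = 0.0297). The Creb3l1 call was lost in KO without KO replicate 1 or 3 or without KO+R replicate 1 or 2, and in WT without any single WT or WT+R library. Mbtps1, the protease that activates ATF6, was higher in KO+R than in KO+P (0.70, SE 0.12, adjusted p = 0.00733), where 4.08% of all genes were called. Its mean level was 163 CPM in KO, 126 in KO+P and 204 in KO+R.

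Chaperones of the cytosol and mitochondria had 7 of 14 genes positive in KO+P and 10 of 14 in WT+P, with medians of 0.02 and 0.10 and 3 at an unadjusted p under 0.05 in each. Hspa1a and Hspa1b, heat-inducible HSP70 genes, were lower in KO+R than in KO+P (-2.81, adjusted p = 0.049, and -2.49, adjusted p = 0.021). Hspa1a was at 6.24, 11.2 and 11.3 CPM in KO, 80.6, 26.2 and 17.6 in KO+P and 4.02, 6.64 and 6.99 in KO+R. Hspa1b was at 15.0, 23.7 and 25.2 CPM in KO, 94.9, 37.6 and 35.0 in KO+P and 6.46, 10.6 and 12.7 in KO+R. They are near-identical copies whose reads the counting could split, so each value is uncertain. In KO vs WT none of the genes of the 7 lists was called.

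The 10 genes varied together over the 16 libraries. Pearson's r of log2 CPM between pairs of them had a median of 0.928 over 45 pairs and ranged from 0.711 to 0.985. The propranolol libraries of replicate 1 lay far above the others, with Hspa5 at 4604 and 4104 CPM and next at 1217. How far r rests on them was not tested. In KO replicate 3 the propranolol ratio was 1.45 for Herpud1 and 0.80 for Calr. As a description with no test, since all points share the same libraries, the 5 genes outside the lists whose pattern was most like that of Hspa5, of 8907 genes that averaged 10 CPM or more, were Serp1 (r = 0.985), Zfp9 (0.981), Uso1 (0.979), Lrrc59 (0.977) and Xpot (0.977). Serp1 encodes a small protein of the ER translocon and Uso1 a tether in ER to Golgi transport. For Xbp1 they were Tbce (0.973), Phf10 (0.968), Iah1 (0.968), Slc35f6 (0.965) and Paxx (0.964). No gene was in both sets of 5.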

How the data were processed

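The authors deposited 1 table a library, in Salmon's format, with the effective length, TPM value and expected count of each transcript. The submitters' processing notes list Salmon 1.5.2 and GRCm39, and the paper's methods describe STAR, HTSeq and DESeq2 on poly(A), unstranded, paired-end libraries. No scaling between libraries had been applied to the deposited expected counts. Salmon shares reads between transcripts, so isoform shares are estimates. The authors' TPM values, which are scaled for length, were used to compare genes. Counts were summed per gene with GENCODE on GRCm39, which named 99.12% of 140789 transcripts and 99.43 to 99.61% of the counts, rounded and tested over 14838 genes in 1 edgeR 4.0.16 quasi-likelihood model of 6 groups (R 4.3.3, TMM, filterByExpr, 10 residual degrees of freedom, Benjamini-Hochberg). The script was tested on simulated data. Calls needed an adjusted p under 0.05 and a fold above 1.5, and interactions the adjusted p alone.

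Replicate numbers pair the libraries by their values: deviations from group means correlated at 0.189 to 0.693 in every same-numbered pair of the groups compared. Over all 36 same-numbered pairs the median was 0.519 and the range 0.032 to 0.693. The 70 other pairs had a median of -0.230. Deviations cancel within a group, so negative values there follow from positive ones in same-numbered pairs and are not separate evidence of pairing. The model with a replicate block and DESeq2 1.42.0 were alternatives, with another scaling, no filter, protein-coding transcripts, a length offset, only the groups compared and each library left out. Xbp1 shares were compared with exact permutation tests (scipy 1.17.1).

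The 10 genes and the lists were chosen with earlier results of these data known. Named were the 10 genes, Pdcd10, for Hspa5 and Xbp1 the 5 genes with the most similar pattern, and of each list up to 4 called genes, or else 2, by smallest p.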

Additional observations from a re-analysis of the deposited data

How the results depend on the processing

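All 10 genes kept positive log2 fold changes in KO+P vs KO and WT+P vs WT under every setting that used all libraries. None of the 10 was called by edgeR in the 11 comparisons. DESeq2 called 1 in KO+P vs KO (1.11% of all genes), 2 in WT+P vs WT (0.795%), 4 in KO+R vs KO+P (7.53%) and 2 in WT+R vs WT+P (4.29%). Without the filter on low counts edgeR called 2 in KO+R vs KO+P (2.44% of all genes) and 1 in WT+R vs WT+P (1.07%). Leaving out each library in turn gave 0 to 6 calls in WT+P vs WT, 0 to 5 in KO+R vs KO+P and 0 to 5 in WT+R vs WT+P. The highest counts were without WT+P replicate 2, which leaves 1 WT+P library, and without KO+P replicate 3. The Calr value of KO+P vs KO ranged from -0.033 (KO+P replicate 1 left out) to 0.66 (KO+P replicate 3 left out). With replicate 1 left out of every group, a setting added after seeing the data, it was -0.12, the Pdia4 value of WT+P vs WT was -0.013, and the medians of the 10 genes were 0.30 in KO and 0.14 in WT. In that setting 9 of the 10 genes were still positive in each of these comparisons, up to 0.94 in KO and 0.57 in WT. Leaving out each library, the difference in the Xbp1 share ranged from -0.84 (without KO replicate 2) to 2.23 points (without KO replicate 1) for KO vs WT and from -2.24 (without KO replicate 1) to 0.83 points (without KO replicate 2) for KO+R vs KO.

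The replicate block gave 2 calls in KO+R vs KO+P in edgeR, and no other call on the 10 genes changed with it there. DESeq2 with the replicate block called 2 in KO+P vs KO (6.29% of all genes), 1 in WT+P vs WT (1.04%), 3 in KO+R vs KO+P (12.1%) and 3 in WT+R vs WT+P (8.35%). Over all genes, KO+P vs KO had 1 call in edgeR, 21 with the replicate block, 52 without the filter, 164 in DESeq2 and 934 in DESeq2 with the block, and KO+R vs KO+P had 606, 1428, 665, 1117 and 1800. The cause of these differences was not tested. The biological coefficient of variation over all genes was 32.3%, and 19.0% with the replicate block. The part of depth in these values was not tested.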

Other observations

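Most members were counted on 1 transcript. For Pdia4, Dnajb9, Calr and Hsp90b1 a single protein-coding transcript held over 99% of the gene's counts summed over all libraries. Hspa5 had 89.5% on its main transcript and 10.3% on a second protein-coding one. Herpud1 had 91.5% and 7.68% on its main pair, and Manf 64.3% and 14.3% on 2 protein-coding transcripts and 21.1% on a transcript with a retained intron. Of the exon bases of Hsp90b1 and Manf, 15.7% and 9.25% overlapped other genes.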
